A study of Mus musculus with 15 samples.

Results

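Mitochondrial ribosomal protein genes, taken as every gene symbol that starts with Mrpl or Mrps and a digit, that is no pseudogene and that is listed once only, numbered 77 among 21788 symbols listed once in any file of the study. By their names, 48 belonged to the large subunit (Mrpl) and 29 to the small subunit (Mrps). All 77 were listed in the sorted and the antibody libraries, and 76 in the bulk pair, which did not list Mrpl57. The bulk files hold Mrpl57 under its older symbol Mrp63, at 24.619 and 23.991 RPKM, and it was not counted there.

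The mitochondrial ribosome sits in the mitochondrial matrix and makes the few proteins encoded by mitochondrial DNA, all of them core subunits of the respiratory chain and of ATP synthase. Its RNA comes from the mitochondrial genome, and all of its proteins are made from nuclear genes in the cytosol and imported. The large subunit joins amino acids and the small subunit reads the messenger RNA, and each combines proteins that bacteria also have with proteins found in mitochondria only. CD8+ T cells rely on mitochondrial translation to build respiratory capacity when they proliferate and kill. Some names are historical: the proteins of Mrps18a and Mrps30 are now placed in the large subunit, and that of Mrps36 in a dehydrogenase complex.

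The RNA came from CD8+ T cells that had entered subcutaneous tumours of E.G7, an ovalbumin-making mouse T lymphoma line, in female C57BL/6 mice aged 6 to 8 weeks when E.G7 cells were placed under the skin. Cells were sorted on day 21 and the labels give an age of 9 to 11 weeks for all 15 libraries. A kit for ultra-low input, which amplifies cDNA before sequencing, made every library. The bulk pair held ovalbumin-specific CD8+ cells from 6 wild-type mice in 1 library and from 6 mice of a B7S1 knockout, labelled KO, in the other. B7S1, encoded by Vtcn1, is a ligand of the B7 family that restrains T cells. Further libraries held 3 PD-1+ populations: DN with neither Tim-3 nor the B7S1 receptor, TIM-3_SP with Tim-3 alone, and B7S1R_SP with the B7S1 receptor alone. For each population there were 2 wild-type libraries, which the titles number 1 and 2, besides 1 labelled KO. The labels call the last 4 libraries Control, anti_B7S1, anti_PD1 and combo, all from wild-type mice, with no dose or schedule. Strain and genotype entries of several sorted libraries appear to count upward, so groups were taken from the titles. Nothing says which sorted or antibody libraries came from separate mice, so p-values measure only the spread between these libraries, which may be technical.

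Some libraries went against their labels or stood apart. Vtcn1 was not lower in libraries labelled KO: it read 0.0687 RPKM in the wild-type bulk library and 9.46 RPKM in the one labelled KO, and it was listed at 0 FPKM in the 3 wild-type sorted libraries numbered 2 against 0.16 to 2.5 FPKM in those labelled KO. Every genotype direction given here therefore rests on the labels. Haemoglobin genes took 1.14% to 9.72% of summed FPKM in the wild-type libraries numbered 2 and at most 0.0136% in those labelled KO. The 9 CD8 T cell markers were above 0 in all 15 libraries, with summed levels of 2148 to 8977 FPKM in the sorted ones. Markers of myeloid cells summed to 779 to 8322 FPKM in the B7S1R_SP libraries, to 168 to 290 FPKM in TIM-3_SP (289.9 at the highest) and to 314 to 691 FPKM in DN. In bulk RNA, fewer cells of a type and less RNA per cell cannot be told apart.

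Promoter sequence is shown first because motifs of factors known to act on nuclear genes for mitochondrial proteins lie in it. RefSeq (GRCm38.p6) gave windows of 250 bases before to 50 bases after the start for 68 of the 77 genes. CCGGAAG, the core of ETS-family sites such as that of GABP (also called NRF-2), was found on either strand in 25 of them, 36.8%, against 22.3% of 7938 genes tested and 9.93% of all 27025 genes. AAGATGGCG, the core of the YY1 site, was found in 8, or 11.8%, against 4.04% and 1.64%. The palindromic core of the NRF1 site was found in 3 (Mrpl32, Mrpl39 and Mrpl9), or 4.41%, against 2.58% and 1.07%. Any of these motifs was present in 34 windows, 50%, against 27.3% and 12.1%. Motifs searched for comparison were no more frequent than among tested genes: TGACGTCA (CREB) stood in 2.94% against 3.83%, CACGTG (the E-box) in 7.35% against 12.1%, and CCAAT (NF-Y) in 39.7% against 43.5%. Among the ETS, YY1 and NRF1 motifs, no 2 matches of different motifs shared a base in these windows. The motifs searched for comparison were not checked for this. A match describes letters only and shows neither binding nor a cause.

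The stretches below run from 100 bases before to 30 bases after the start for 5 genes whose values are described further on, written 5′ to 3′ along the gene, with matches to the ETS and YY1 motifs on either strand in capitals. They lie, on GRCm38.p6, at chr9:105053168-105053297 (Mrpl3), chr5:31613851-31613980 (Mrpl33), chr6:83109008-83109137 (Mrpl53), chr17:46110904-46111033 (Mrps18a) and chr13:99344686-99344815 (Mrps27), all on the plus strand.
Mrpl3: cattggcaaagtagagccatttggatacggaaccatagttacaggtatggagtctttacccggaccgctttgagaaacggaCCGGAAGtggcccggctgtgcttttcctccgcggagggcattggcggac
Mrpl33: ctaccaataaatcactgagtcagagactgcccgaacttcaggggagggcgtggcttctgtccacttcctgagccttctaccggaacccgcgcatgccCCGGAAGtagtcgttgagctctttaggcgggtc
Mrpl53: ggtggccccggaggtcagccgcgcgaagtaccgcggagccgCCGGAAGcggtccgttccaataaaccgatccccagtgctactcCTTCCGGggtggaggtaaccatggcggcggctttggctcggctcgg
Mrps18a: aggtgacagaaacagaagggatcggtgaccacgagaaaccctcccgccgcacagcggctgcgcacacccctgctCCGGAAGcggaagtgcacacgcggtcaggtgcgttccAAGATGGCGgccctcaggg
Mrps27: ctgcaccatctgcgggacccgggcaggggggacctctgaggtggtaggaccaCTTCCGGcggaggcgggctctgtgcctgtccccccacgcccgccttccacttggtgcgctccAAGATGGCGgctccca
Mrps18a and Mrps27 carry the YY1 letters just past the start, whereas Mrpl53 carries the ETS letters on each strand. All 5 stretches hold a match, as do windows of other genes described further on, such as Mrpl27 (ETS), Mrpl37 (YY1) and Mrpl32 (NRF1). Genes without an ETS, YY1 or NRF1 match in their windows include Mrpl2, Mrpl12, Mrpl16, Mrpl20, Mrpl24, Mrpl46, Mrpl49, Mrpl50 and Mrps5.

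All 77 genes were found in GENCODE vM21 (GRCm38, the assembly called mm10), spread over 17 chromosomes with at most 10 on any of them. A divergent protein-coding neighbour started within 1000 bases for 18 of them, 23.4%, against 6.79% of 21951 protein-coding genes. Such neighbours included Sars2, the mitochondrial seryl-tRNA synthetase gene, beside Mrps12, and Ptcd2 beside Mrps27. They also included Psma2 beside Mrpl32, Hira beside Mrpl40 and Ncapd2 beside Mrpl51. How many of the 18 neighbours encode mitochondrial proteins was not counted. Exons overlapped another gene in 25 cases, and in 15 of them over more than 10% of exon bases. Mrpl53 (chromosome 6, 83109040 to 83109939) is overlapped along 100% of its exon bases by Gm42688, on the same strand. The antisense gene Ccdc142os overlaps it too, over a share not given here. Gm43809 overlaps 22.4% of the exon bases of Mrpl33, also on the same strand, where strand would not separate the reads. Whether the counting used strand is not given in the sources used here, so the values of the 15 genes are uncertain.

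The genes were expressed throughout the sorted libraries, and none was listed at 0 in any of the 9. FPKM scales fragments by transcript length, so levels can be set beside each other across genes, though the wild-type files numbered 1 list other genes and were made as a separate table. Wild-type number 1 had medians over the 77 genes of 67.1 (DN), 44.6 (TIM-3_SP) and 53.0 FPKM (B7S1R_SP). It was 67.8, 67.3 and 98.2 FPKM in the same order for number 2, and 90.5, 79.4 and 92.7 FPKM in the libraries labelled KO. TIM-3_SP held the lowest median of its set each time, by a narrow margin in number 2. The genes together took 0.746% to 1.30% of the summed FPKM of a library.

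**Figure D1:**
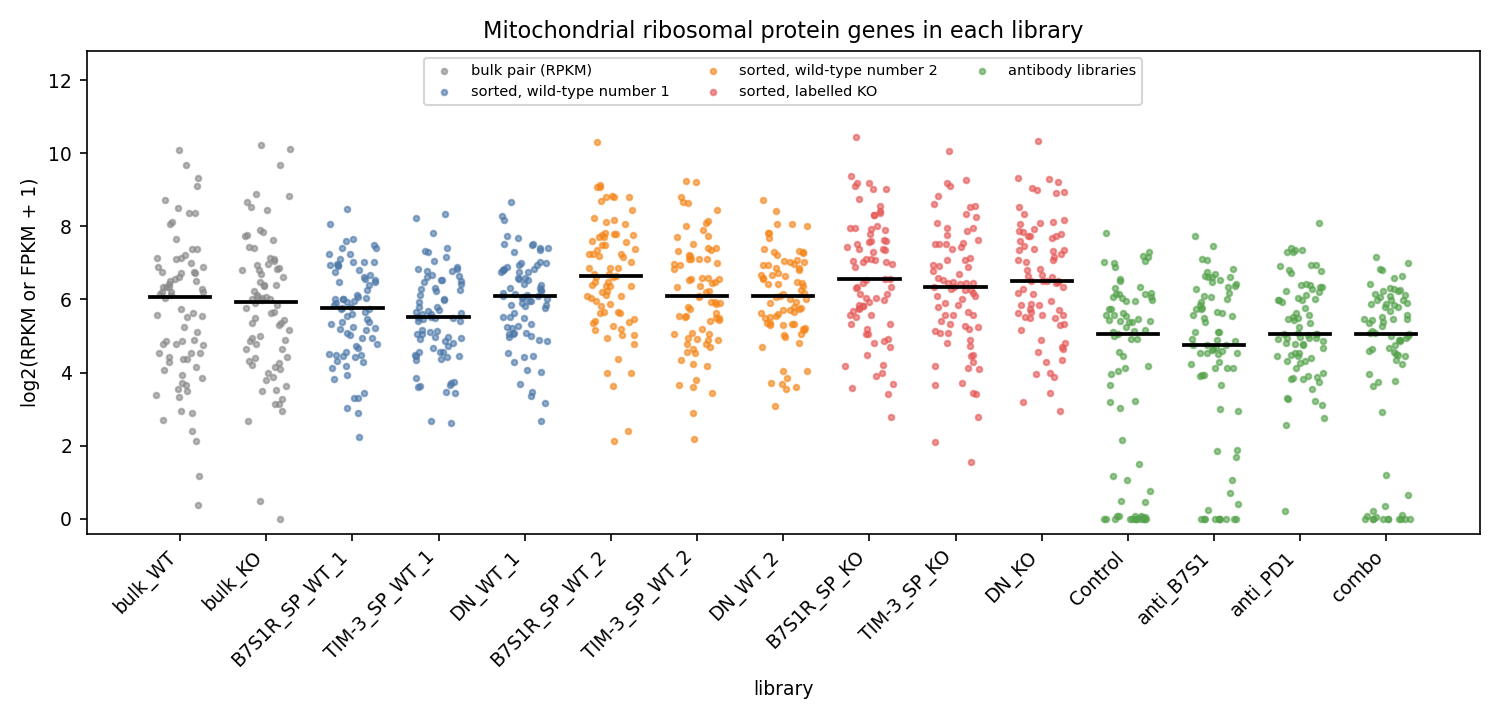
Each point is 1 mitochondrial ribosomal protein gene in 1 library, on a log2(RPKM or FPKM + 1) scale, with a black bar at the median; libraries on the x axis are coloured by the table they belong to. Points at 0 appear in the antibody libraries (12 in Control, 10 in anti_B7S1, none in anti_PD1 and 10 in combo) and in none of the 9 sorted libraries.

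Single genes differed far more than libraries did. Mrpl33, a small protein shared with bacteria, had the highest mean level, with 287 to 1379 FPKM and a median of 600.1 FPKM over the 9 sorted libraries. Mrpl52, found in mitochondria only, followed with 223 to 587 FPKM, and Mrps16, shared with bacteria, with 130 to 484 FPKM (129.9 at the lowest). At the other end, Mrps27, an RNA-binding protein of the small subunit, read 1.92 to 21.1 FPKM, Mrps2 3.34 to 20.8 FPKM and Mrps5 3.33 to 19.7 FPKM. Of 76 neighbouring pairs in this order, 75 lay closer together than the smaller of their own SDs over libraries, so the order is coarse. The exception is Mrpl33, which stood 0.65 above Mrpl52 in mean log2(FPKM + 1).

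The order of the genes was kept between libraries. Spearman's rho across the 77 genes ran from 0.717 to 0.987 over the 36 pairs of sorted libraries, with a median of 0.854, and was 0.933 across 76 genes in the bulk pair. The genes share transcript length across libraries, and shorter transcripts had higher FPKM, with a rho of -0.68 between length and mean level. Genes with a bacterial counterpart (47) had a median of 90.7 FPKM and those of mitochondria only (30) a median of 55.6 FPKM. Each is the median over genes of a gene's own median over the sorted libraries. By subunit name the medians were 75.3 FPKM (large) and 80.5 FPKM (small).

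The 77 genes also varied less between libraries than most. The SD of log2(FPKM + 1) over the 9 libraries had a median of 0.64 among them, against 0.90 for all 10178 genes tested and 0.74 for the 4293 genes in the same range of mean level. Mrps17, which binds ribosomal RNA in the small subunit, was the steadiest, from 63.8 to 97.7 FPKM (SD 0.19). Mrpl49, a mitochondria-only protein of the large subunit, was the widest, from 3.7 to 46.3 FPKM (SD 1.23). The lowest and highest libraries differed by less than 3-fold for 23 genes and by more than 10-fold for 2, Mrpl49 and Mrps27, with a median of 3.82-fold.

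Comparing TIM-3_SP with DN asks what changes as PD-1+ cells gain Tim-3. No mitochondrial ribosomal protein gene passed the test, and on the whole the genes read slightly lower in TIM-3_SP. Of the 77, 56 had a negative fitted difference and 21 a positive one, where 40.2% of all genes had a positive one. The median fitted difference of the 77 genes was -0.24 in log2(FPKM + 1), beside -0.14 over all genes tested. The model was limma on the 9 sorted libraries with a term for the set (wild-type number 1, wild-type number 2 or labelled KO), and p-values were adjusted by Benjamini-Hochberg over 10178 genes. The filter, a mean of 1 FPKM or more, kept all 77 genes, 0 of them were called at an adjusted p under 0.05 (0.059% of all genes were called), and the smallest adjusted p by limma was 0.472. At an unadjusted p under 0.05 there were 2, Mrps27 and Mrpl3, against 9.06% of all genes.

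Within sets the direction varied. The median over the 77 genes was -0.40 in wild-type number 1, 0.07 in number 2 and -0.32 in the libraries labelled KO. Beside these, all genes had medians of -0.003, -0.34 and -0.07. In 22 genes TIM-3_SP read lower than DN in all 3 sets (19.7% of all genes did), and in 0 it read higher in all 3 (8.61% of all genes did). The median fitted difference was -0.09 without DN_WT replicate 1 and -0.39 without DN_WT replicate 2. It was -0.06 with libraries set to equal medians, where 35 genes were positive and 42 negative (52.5% of all genes were positive).

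Mrps27 (chromosome 13, 99344786 to 99415562) read 21.1, 11.2 and 6.75 FPKM in DN and 9.97, 3.52 and 1.92 FPKM in TIM-3_SP, for wild-type number 1, number 2 and labelled KO. TIM-3_SP was lower in each set, although the groups overlapped, and the fitted difference was -1.28 ± 0.47 (SE; 95% interval -2.36 to -0.21, limma adjusted p = 0.472). An unnamed transcript, 6430562O15Rik, overlaps 22.6% of its exon bases on the other strand. Mrpl3, which lies close to the peptidyl transferase centre (chromosome 9, 105053239 to 105079888), read 44.9, 45.9 and 39.3 FPKM in DN and 11.6, 22.1 and 25.4 FPKM in TIM-3_SP. These groups did not overlap, and the fitted difference was -1.17 ± 0.46 (95% interval -2.20 to -0.13, limma adjusted p = 0.509). Here and further on, no share of all genes is given for groups that did not overlap. Mrpl49 read 32.6, 39.6 and 46.3 FPKM in DN and 5.19, 26.4 and 33.1 FPKM in TIM-3_SP. Most of its fitted difference of -1.16 ± 0.57 (limma adjusted p = 0.600) came from wild-type number 1, where the difference was -2.44 against -0.57 and -0.47 in the other sets.

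Beside these values, 7 of 9 CD8 T cell markers and 8 of 9 proliferation markers read higher in TIM-3_SP, with 0 called in either list, and summed proliferation markers were 230, 674 and 701 FPKM (229.7 and 700.8 before rounding) against 145, 324 and 560 FPKM (559.6) in DN. Their part in the differences was not tested.

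**Figure D2:**
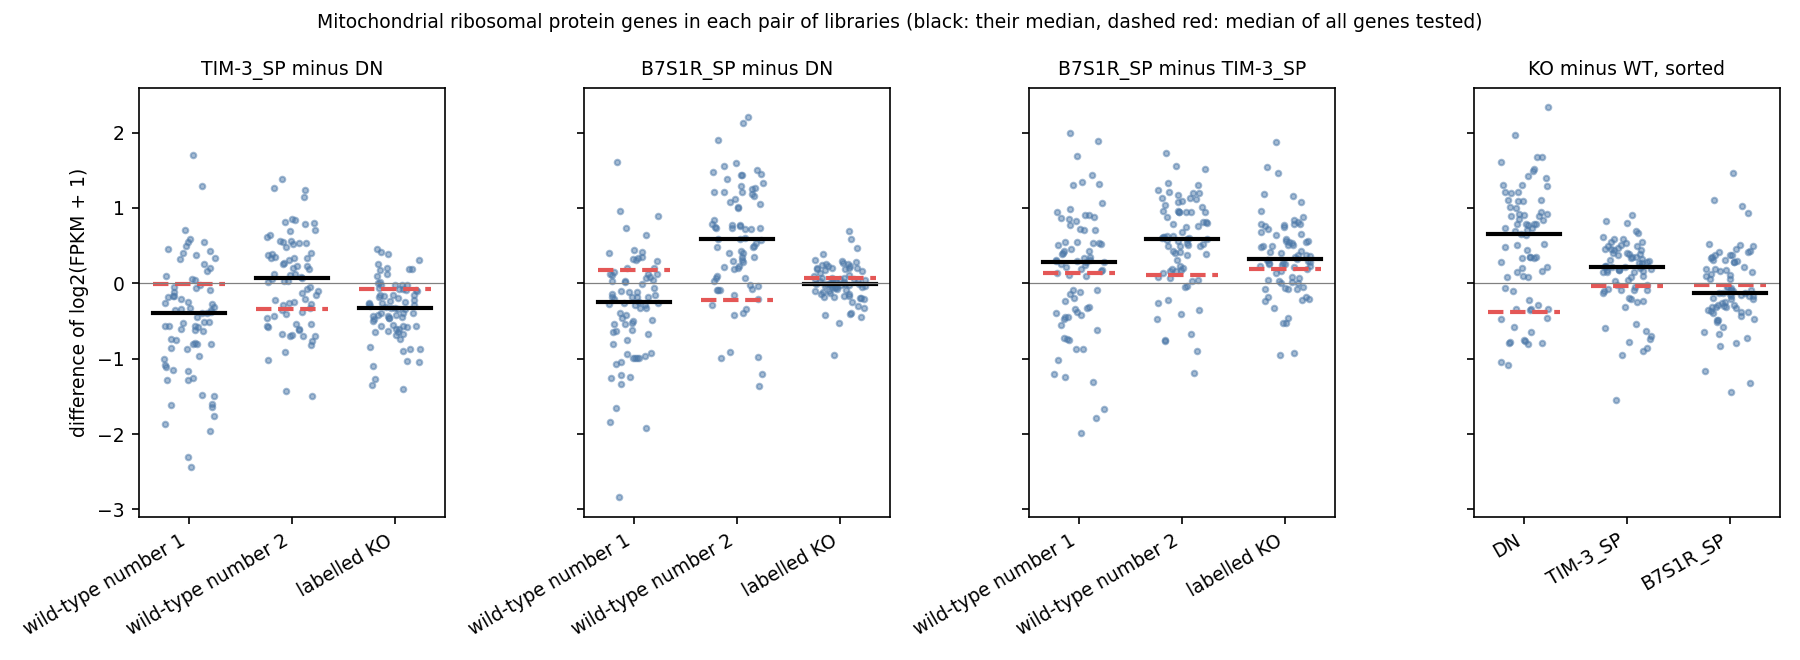
Each point is the difference of 1 mitochondrial ribosomal protein gene between 2 libraries of 1 set or, in the right panel, between the library labelled KO and wild-type number 2 of 1 population, in log2(FPKM + 1). The black bars (medians of the 77 genes) lie above 0 in all 3 sets for B7S1R_SP minus TIM-3_SP (0.28, 0.59 and 0.33) and on either side of 0 in the other panels.

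B7S1R_SP and DN differ in the B7S1 receptor, which is the ligand's partner on T cells. No gene of the 77 was called (0% of all genes were), the smallest adjusted p by limma was 0.753, and 0 had an unadjusted p under 0.05 against 6.66% of all genes. The fitted difference was positive in 48 genes and negative in 29 (50.6% of all genes were positive), with a median of 0.12 beside 0.008 over all genes. The sets disagreed: the medians were -0.25 in wild-type number 1, 0.58 in number 2 and -0.01 in the libraries labelled KO. The median was -0.06 without DN_WT replicate 2, 0.02 without B7S1R_SP_WT replicate 2, and 0.25, 0.24 and 0.21 without B7S1R_SP_WT replicate 1, DN_WT replicate 1 and DN_KO. In all 3 sets, 13 genes read higher in B7S1R_SP (15.8% of all genes) and 8 lower (14% of all genes).

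Mrpl27, which sits at the peptidyl transferase centre (chromosome 11, 94653767 to 94660089), read 107, 156 and 271 FPKM in DN and 168, 349 and 318 FPKM in B7S1R_SP. The sets agreed in sign for Mrpl27, the groups overlapped, and the fitted difference was 0.67 ± 0.43 (95% interval -0.30 to 1.65, limma adjusted p = 0.775). Mrpl46, of the central protuberance of the large subunit, read 44.5, 69.5 and 100.2 FPKM in DN and 83.4, 115 and 124 FPKM in B7S1R_SP, a fitted difference of 0.64 ± 0.43 (limma adjusted p = 0.795). Mrpl33, at 287, 417 and 1277 FPKM in DN, had 354, 1269 and 1379 FPKM in B7S1R_SP, a fitted difference of 0.67 ± 0.45 (limma adjusted p = 0.791) that lay mostly in wild-type number 2.

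On the lower side, Mrpl49 read 32.6, 39.6 and 46.3 FPKM in DN and 3.7, 29.8 and 38.9 FPKM in B7S1R_SP, and its fitted difference of -1.16 ± 0.57 (limma adjusted p = 0.753) again came mostly from wild-type number 1. Mrpl24, an early-binding protein near the exit tunnel, read 169.6, 111 and 87.1 FPKM in DN and 119.85, 55.1 and 44.5 FPKM in B7S1R_SP. The sets had like differences for it, and the fitted value was -0.81 ± 0.45 (95% interval -1.83 to 0.20, limma adjusted p = 0.761). Exons of Rrnad1 on the other strand overlap 38.2% of its exon bases. Mrpl39, with 32.9, 44.1 and 34.7 FPKM in DN and 9.77, 34.7 and 32.2 FPKM in B7S1R_SP, had a fitted difference of -0.70 ± 0.51 (limma adjusted p = 0.807).

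Of the marker lists, all 12 tested myeloid genes read higher in B7S1R_SP than in DN and all 9 CD8 T cell markers read lower, with 0 called in either list. Their part in the differences was not tested.

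**Figure D3:**
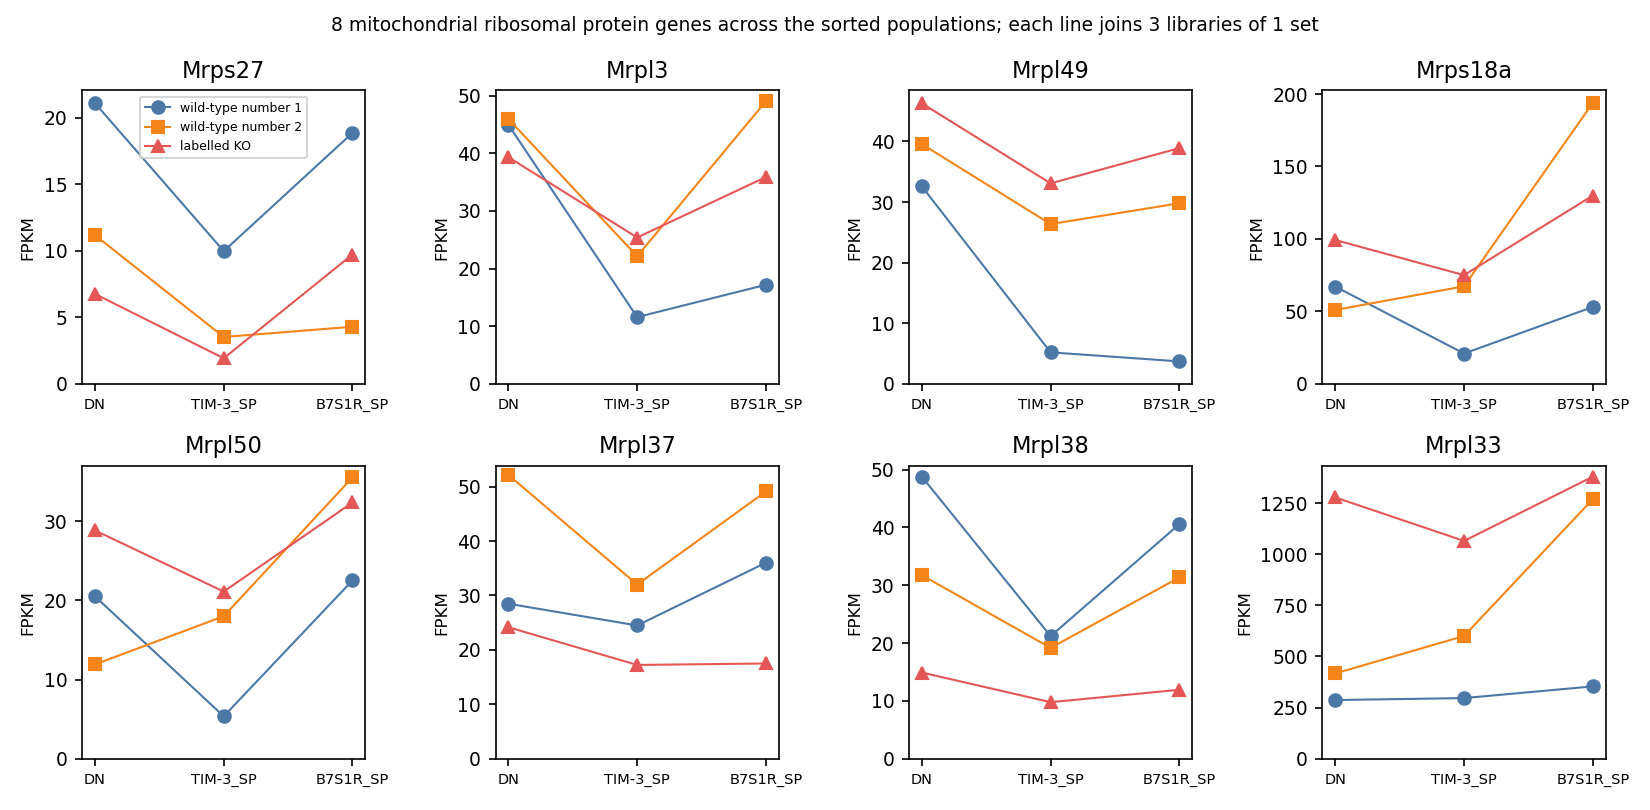
Levels of 8 mitochondrial ribosomal protein genes in FPKM (y axes from 0, a different scale for each gene) in the 3 sorted populations, with a line for each set of 3 libraries. Mrps27 and Mrpl3 are lowest in TIM-3_SP within every set, Mrpl37 and Mrpl38 are lowest in the set labelled KO in every population, and Mrpl49 is low in TIM-3_SP and B7S1R_SP of wild-type number 1 (5.19 and 3.7 FPKM).

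B7S1R_SP against TIM-3_SP sets the receptor-bearing cells beside the Tim-3+ cells and gave the most even picture. Fitted differences were positive in 60 of the 77 genes and negative in 17, where 59.6% of all genes were positive. The median of the 77 was 0.39 beside 0.18 over all genes, and it was positive in every set (0.28, 0.59 and 0.33). None passed the test: 0 of 77 were called (0.413% of all genes), and the smallest adjusted p by limma was 0.317. At an unadjusted p under 0.05 there were 2, against 14.9% of all genes. In all 3 sets, 37 genes read higher in B7S1R_SP, beside 24.7% of all genes, and 3 read lower, beside 13.9% of all genes. The 37 are 48.1% of the 77, and whether that share differs from the background was not tested. The median was 0.21 without B7S1R_SP_WT replicate 2. It was 0.18 with libraries set to equal medians, where 47 genes were positive and 30 negative (48.3% of all genes were positive).

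Mrps18a (chromosome 17, 46110986 to 46128910), whose protein is built into the large subunit, read 53.0, 194 and 129.9 FPKM in B7S1R_SP and 20.9, 67.3 and 74.99 FPKM in TIM-3_SP, in the order wild-type number 1, number 2 and labelled KO. B7S1R_SP was higher in each set, the groups overlapped through wild-type number 1, and the fitted difference was 1.20 ± 0.53 (95% interval 0.01 to 2.39, limma adjusted p = 0.333). Mrpl16 (chromosome 19, 11770391 to 11774960), named here for its p after the values were seen, read 40.4, 81.3 and 65.2 FPKM against 20.5, 41.3 and 33.1 FPKM. Its difference was 0.95 ± 0.40 (limma adjusted p = 0.317), close to 2-fold within each set. Mrpl50 read 22.5, 35.5 and 32.3 FPKM against 5.36, 18.0 and 21.1 FPKM, without overlap, and had a fitted difference of 1.14 ± 0.52 (limma adjusted p = 0.352). Mrpl2, a protein of the peptidyl transferase region, read 30.05, 81.5 and 50.9 FPKM against 11.4, 45.9 and 27.2 FPKM, and had a fitted difference of 1.01 ± 0.53 (limma adjusted p = 0.429).

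The 3 genes that read lower in B7S1R_SP in every set differed little. Mrps21, a small-subunit protein with a bacterial counterpart, read 91.5, 449 and 580.2 FPKM against 168, 594 and 614 FPKM in TIM-3_SP, a fitted difference of -0.45 ± 0.47 (limma adjusted p = 0.716). Mrpl32, whose maturation needs a protease of the inner membrane, read 46.1, 151 and 161 FPKM against 62.9, 181 and 231 FPKM, or -0.41 ± 0.45 (limma adjusted p = 0.737). Mrpl4, which lines the exit tunnel, read 149.0, 98.2 and 70.1 FPKM against 159, 137 and 79.4 FPKM, or -0.25 ± 0.39 (limma adjusted p = 0.822).

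In this comparison all 12 tested myeloid genes read higher and all 9 CD8 T cell markers read lower in B7S1R_SP, with 0 called, and the summed CD8 markers were 4901, 2390 (2389.8) and 2148 FPKM against 7432, 8977 and 6629 FPKM. Their part in the differences was not tested.

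A panel chosen by role gives the genes around these. The stalk proteins Mrpl10, Mrpl11 and Mrpl12 had unlike values: Mrpl10 had fitted differences of 0.10 (TIM-3_SP minus DN), 0.001 (B7S1R_SP minus DN) and -0.10 (B7S1R_SP minus TIM-3_SP), Mrpl11 -0.32, 0.35 and 0.68, and Mrpl12 -0.56, 0.27 and 0.82. Mrpl12 read 96.7, 224 and 173 FPKM in B7S1R_SP and 73.6, 94.0 and 95.9 FPKM in TIM-3_SP, so B7S1R_SP was higher in each set (SE 0.42, limma adjusted p = 0.404). Mrpl23, at the exit tunnel, had -0.22, 0.36 and 0.57. On the decoding side of the small subunit, Mrps12 had -0.26, 0.22 and 0.49 and Mrps7 -0.45, 0.09 and 0.54. The 3 paralogs named Mrps18 were also unlike, though another gene overlaps 59.1% of the exon bases of Mrps18b and 18.5% of those of Mrps18c. Beside the 1.20 of Mrps18a, B7S1R_SP minus TIM-3_SP was 0.22 for Mrps18b and -0.25 for Mrps18c. Mrps11, Mrps22, Mrps28 and Mrps30 had 0.35, 0.48, -0.18 and -0.20 in that comparison, each smaller than its SE of 0.44 to 0.71.

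Genes that work with the mitochondrial ribosome are given by lists. Of 6 tested mitoribosome proteins under other names, such as Dap3 and Ptcd3, 4 read lower in TIM-3_SP than in DN, 5 higher in B7S1R_SP than in DN and 5 higher in B7S1R_SP than in TIM-3_SP. For 10 mitochondrial translation factors the median fitted differences in the same order were -0.66, -0.11 and 0.47, for 14 mitochondrial tRNA synthetases -0.64, -0.43 and 0.29, and for 22 assembly factors -0.33, -0.16 and 0.05. For 10 factors of mitochondrial DNA and RNA, such as Tfam and Polrmt, the medians were 0.17, 0.19 and -0.04. The 84 cytosolic ribosomal protein genes had medians of -0.31, 0.06 and 0.36, and 79 nuclear subunits of oxidative phosphorylation -0.16, 0.22 and 0.38, where the 77 genes had -0.24, 0.12 and 0.39. In none of these lists did any gene pass the test in any of these comparisons, or between genotypes, where the medians of the first 5 lists were -0.04, -0.32, -0.19, -0.36 and -0.08. The mitochondrially encoded partners could not be set beside them, since no symbol starting with mt- was listed in the files used here.

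The genotype comparison asks what loss of the ligand does to the sorted cells, and used the 6 libraries whose files list the same genes. Each label had a single library of each population. The SEs, intervals and p-values therefore measure how alike the difference was over populations, not the spread between replicates of a label. Of the 77 genes, 52 read higher in the libraries labelled KO and 25 lower, where 40.5% of all genes read higher. The median fitted difference of the 77 was 0.29 in log2(FPKM + 1) beside -0.16 over all 10097 genes. None passed: 0 of 77 were called (0.0396% of all genes), the smallest adjusted p by limma was 0.367, and 2 had an unadjusted p under 0.05 against 12.4% of all genes. The difference was uneven over populations, with medians of 0.66 for DN, then 0.21 for TIM-3_SP, and -0.13 for B7S1R_SP, where all genes had -0.38, -0.04 and -0.02. Without either DN library the median was 0.06. In all 3 populations 25 genes read higher (14.1% of all genes) and 11 lower (23.5% of all genes). With equal medians 63 genes were positive and 14 negative (57.2% of all genes were positive), and the median of the 77 was 0.56. With all 9 libraries it was 0.59.

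The leading genes on the lower side were Mrpl37 and Mrpl38, proteins of the large subunit in mitochondria only. Mrpl37 (chromosome 4, 107055874 to 107066868) read 52.1 (DN), 32.0 (TIM-3_SP) and 49.1 FPKM (B7S1R_SP) in wild-type number 2 and, in that order, 24.2, 17.2 and 17.5 FPKM in the libraries labelled KO. These groups did not overlap, and the fitted difference was -1.12 ± 0.37 (95% interval -2.01 to -0.24, limma adjusted p = 0.367). Mrpl38 (chromosome 11, 116131817 to 116138868) read 31.7, 19.2 and 31.3 FPKM against 14.9, 9.79 and 11.9 FPKM, again without overlap, and had a fitted difference of -1.09 ± 0.36 (95% interval -1.96 to -0.22, limma adjusted p = 0.367). The wild-type libraries numbered 1, made as another table, held Mrpl37 at 28.5, 24.5 and 36.02 FPKM and Mrpl38 at 48.75, 21.2 and 40.6 FPKM, all above the libraries labelled KO. Mrps5, at the entrance of the messenger RNA, read 10.7, 11.7 and 11.3 FPKM against 8.23, 3.33 and 5.92 FPKM, or -0.91 ± 0.40 (limma adjusted p = 0.413), and in wild-type number 1 its DN library, at 5.37 FPKM, lay among those labelled KO.

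On the higher side, Mrpl53 read 30.4, 74.4 and 144 FPKM in wild-type number 2 and 158, 85.9 and 194 FPKM in the libraries labelled KO. DN carried most of the fitted difference of 0.99 ± 0.52 (95% interval -0.25 to 2.23, limma adjusted p = 0.469), with 2.34 there against 0.20 and 0.43 in the others. Mrpl33 read 417, 600.1 and 1269 FPKM against 1277, 1065 and 1379 FPKM, or 0.85 ± 0.43 (limma adjusted p = 0.454). Mrpl20, an assembly protein of the large subunit, read 164, 238 and 413 FPKM against 526, 325 and 549 FPKM, or 0.84 ± 0.42 (limma adjusted p = 0.454). In each of these genes DN differed most between the labels.

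Transcript length went with this difference. Among the 77 genes, whose median length was 1223 bases against 2515 bases for tested genes, rho between length and the genotype difference was -0.46, beside -0.04 across 9146 genes. The 39 genes up to the median length had a median difference of 0.44 and the 38 longer ones 0.01, where 1478 genes of such short lengths had 0.18 and 7668 longer genes -0.23. Cytosolic ribosomal proteins, also short, had a median of 0.48 with 80 of 85 positive, and nuclear subunits of oxidative phosphorylation 0.52 with 61 of 79 positive. Haemoglobin genes moved with the labels too: 4 of 4 erythroid markers were lower in the libraries labelled KO and 2, Hba-a1 and Hbb-bs, were called. With haemoglobin genes taken out and the rest rescaled, an alternative added after seeing the data, the median of the 77 genes was 0.19. Of them 48 were positive and 29 negative, where 36.4% of all genes were positive. All 9 CD8 T cell markers read lower and 9 of 9 proliferation markers higher under the KO label, with 0 called. Of 14 tested myeloid markers 11 read higher under the KO label, with a median of 1.01 and 0 called, and their summed level in B7S1R_SP was 8322 FPKM in the library labelled KO against 779 FPKM in wild-type number 2. The part of length and of these markers in the differences was not tested.

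**Figure D4:**
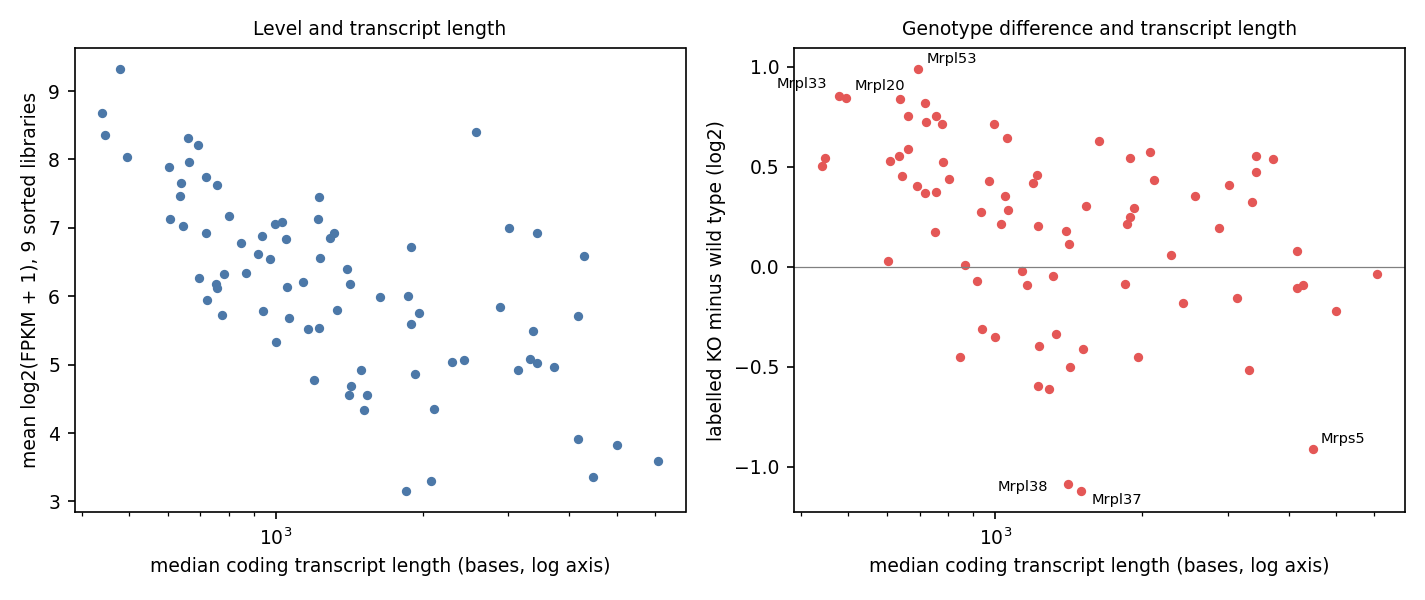
Left, mean log2(FPKM + 1) over the 9 sorted libraries and, right, the fitted difference of libraries labelled KO minus wild type, both against the median length of a gene's coding transcripts on a log axis, with 1 point for each of the 77 genes. Shorter genes lie higher in both panels (Spearman's rho -0.68 and -0.46).

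The bulk pair, with 1 library for each label and so no test, gave the 76 listed genes a median of 66.5 RPKM for wild type and 60.5 RPKM under the KO label. The steps of low RPKM values put the reads of the library labelled KO at 1.09 times those of the wild-type library. Differences centred near 0, with a median of 0.07 in log2(RPKM + 1), 43 genes above 0 and 33 below. Of 74 genes with at least 5 RPKM in either library, 5 were at least 2-fold higher (10.7% of all genes) and 3 at least 2-fold lower (12.1% of all genes) under the KO label, on the scale of RPKM + 1.

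Mrps5 read 1.24 RPKM in the wild-type library and 14.8 RPKM in the one labelled KO, and Mrps27 3.41 and 23.9 RPKM. Mrpl37 read 12.2 and 42.7 RPKM, Mrpl39 15.7 and 40.0 RPKM, and Mrpl45, which anchors the ribosome to the inner membrane, 22.1 and 53.2 RPKM. For the bulk pair, Mrpl39 and Mrpl45 were named after their values were seen, though the rule for named genes holds both for other comparisons. The other direction held Mrpl49 with 22.1 and 5.45 RPKM, Mrpl46 with 118 and 44.4 RPKM and Mrpl12, a protein of the ribosomal stalk, with 76.6 and 28.6 RPKM. Mrps2 had 0.303 RPKM in wild type and the lowest listed value, 0.001 RPKM, under the KO label.

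Set beside the sorted cells, with no library in common, Mrpl37 and Mrps5 read on opposite sides: lower under the KO label in all 3 sorted populations and higher in bulk. Mrpl38 read lower in bulk too, at 20.7 and 13.8 RPKM. Of the 25 genes higher in all 3 sorted pairs, 14 were higher in bulk (44.4% of 1267 such genes overall), and of the 11 lower in all 3, 7 were lower in bulk (48.9% of 2212).

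Among the antibody libraries, 1 for each label, medians over the 77 genes were 32.2 FPKM in Control, 26.2 in anti_B7S1, 32.4 in anti_PD1 and 32.0 in combo. What set these libraries apart was genes listed at 0: 12 of the 77 in Control, 10 in anti_B7S1, 0 in anti_PD1 and 10 in combo. In all, 24 genes stood at 0 in at least 1 library, 17 of them in 1, 6 in 2 and 1, Mrpl22, in 3. Other genes did so as well: of 7294 genes averaging 5 FPKM or more, 19.9%, 14.3%, 3.32% and 10.8% were at 0 in the same order, against 16.2%, 12.2%, 0% and 12.2% of the 74 mitochondrial ribosomal protein genes at that mean. None of 82 cytosolic ribosomal protein genes was at 0. Genes at 1 FPKM or more numbered 5752, 6972, 8640 and 6913. An exact 0 can be a failed estimate, and the depth of these files is unknown.

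**Figure D5:**
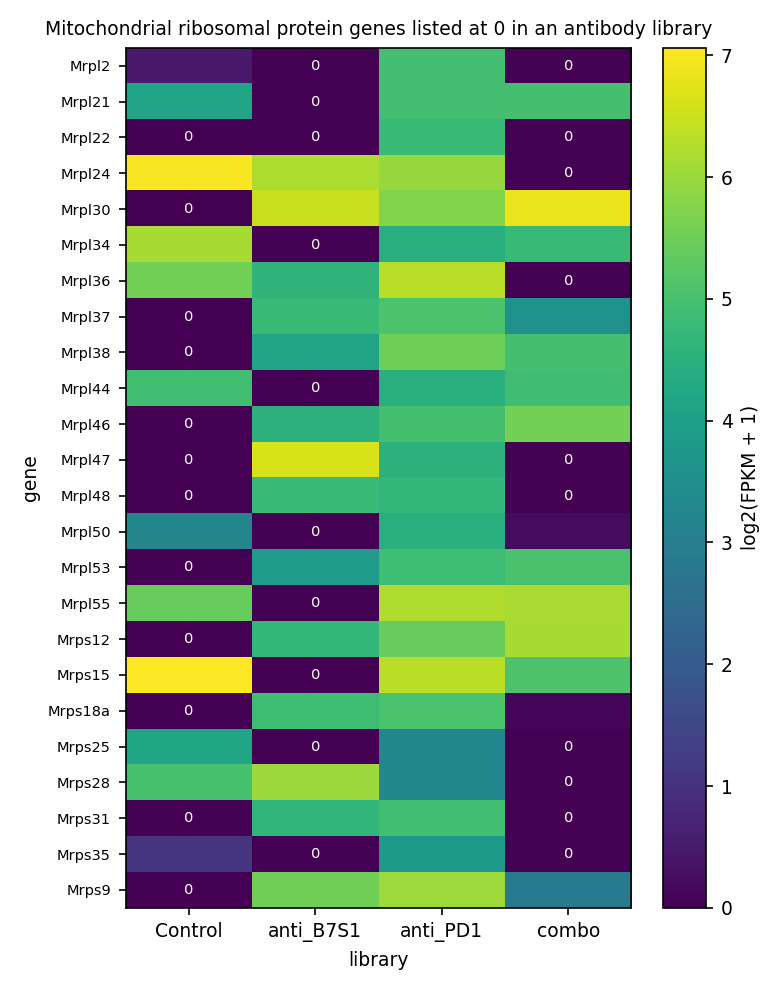
Colours give log2(FPKM + 1) of the 24 mitochondrial ribosomal protein genes listed at 0 in at least 1 of the 4 antibody libraries, with a printed 0 where the file lists 0. The anti_PD1 column holds no 0 and the Control column holds 12.

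Differences between these libraries were wide in both directions, for the 77 genes and for others. Of 70 with at least 5 FPKM in either library, 23 were at least 2-fold higher (37.9% of all genes) and 19 lower (29% of all genes) in anti_B7S1 than in Control. For anti_PD1 against Control the counts were 32 higher (43.8% of all genes) and 13 lower (23.8% of all genes) of 76, and for combo against Control 20 higher (40.1% of all genes) and 18 lower (28% of all genes) of 68. Genes at 0 enter each of these counts. Among the higher genes, Control lists 11 at 0 for anti_B7S1, 12 for anti_PD1 and 7 for combo. Among the lower genes, 7 were at 0 in anti_B7S1, 0 in anti_PD1 and 4 in combo. With libraries set to equal medians the counts were 27 higher and 25 lower for anti_PD1 against Control, and 20 higher and 25 lower for anti_B7S1 against Control. No share over all genes is given at this setting, so these counts cannot be set against a background. Combo against anti_PD1 gave 12 higher (23.6% of all genes) and 27 lower (32.7% of all genes) of 76, and combo against anti_B7S1 18 higher (33.3% of all genes) and 15 lower (30.8% of all genes) of 69. Of the 27, 10 were at 0 in combo, as were 6 of the 15, and 5 of the 18 were at 0 in anti_B7S1. The 3 differences from Control share its library.

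Examples show how single libraries set these counts. Mrpl18 and Mrps26 were near 0 in Control alone: Mrpl18 read 0.06, 114, 121 and 99.3 FPKM in Control, anti_B7S1, anti_PD1 and combo. Mrps26 read 0.06, 137, 31.8 and 94.2 FPKM in the same order. Mrpl30 was listed at 0 in Control and read 87.5, 53.1 and 114 FPKM elsewhere, and Mrps9 was listed at 0 in Control and read 45.3, 64.0 and 6.57 FPKM. Mrps10 read 0.06, 2.69, 13.4 and 42.4 FPKM in the 4 libraries, and Mrpl47 was listed at 0 in Control and combo and read 99.2 and 22.3 FPKM in anti_B7S1 and anti_PD1. In anti_B7S1 it was Mrps15, Mrpl34, Mrpl55 and Mrpl21 that were listed at 0. Mrps15, a small-subunit protein with a bacterial counterpart, read 133, 80.1 and 32.9 FPKM in Control, anti_PD1 and combo. Mrpl34 read 70.0, 20.9 and 26.1 FPKM there, and Mrpl55 41.9, 73.4 and 70.5 FPKM. Combo was the library that listed Mrpl24, Mrpl36 and Mrps28 at 0, while Mrpl9 read 1.29 FPKM in it against 80.4, 52.3 and 79.4 FPKM in Control, anti_B7S1 and anti_PD1.

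Mrpl45 and Mrpl3 were highest in Control by a wide margin. Mrpl45 read 46.6 FPKM in Control and 2.64, 4.92 and 0.56 FPKM in anti_B7S1, anti_PD1 and combo. Mrpl3 read 45.3 FPKM in Control and 0.63, 5.72 and 14.7 FPKM in the same libraries. Mrpl54 read 155 and 176 FPKM in Control and anti_B7S1 and 22.2 and 62.0 FPKM in the 2 libraries with anti_PD1 in their treatment. Mrps2 and Mrps34 were higher in the 2 libraries with anti_B7S1 in their treatment: 47.1 and 27.9 FPKM for Mrps2 in anti_B7S1 and combo against 0.71 and 0.16 FPKM in Control and anti_PD1, and 106 and 76.6 FPKM against 37.1 and 19.1 FPKM for Mrps34.

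Each antibody can also be read in 2 pairs that share no library. For anti_PD1 (anti_PD1 against Control, and combo against anti_B7S1), 7 of 68 genes were at least 2-fold higher in both pairs (15.6% of all genes), 4 were lower in both (7.29% of all genes) and 10 went opposite ways (18.5% of all genes). The 4 were Mrpl24, Mrpl54, Mrps28 and Mrps6, named after their values were seen, and Mrpl24 and Mrps28 were listed at 0 in combo. For anti_B7S1 (anti_B7S1 against Control, and combo against anti_PD1), 5 of 69 were higher in both pairs (8.32% of all genes), 5 lower in both (8.44% of all genes) and 11 opposite (18.5% of all genes). Those higher were Mrpl1, Mrpl30, Mrps2, Mrps26 and Mrps34, and those lower Mrpl32, Mrpl50, Mrps15, Mrps25 and Mrps6, also named after the fact. Mrpl30 was listed at 0 in Control, Mrpl50 and Mrps15 in anti_B7S1, and Mrps25 in anti_B7S1 and combo. Both readings use the same 4 libraries, so they are not independent of each other.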

How the data were processed

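The authors' deposited bulk files give RPKM and their other files FPKM, per the file headers, both fragments or reads scaled by transcript length and library total. Per the submitters' processing notes HISAT2, Bowtie2, RSEM and mm10 were used; versions, annotation and strand setting are not given in the sources used here. No table lists a gene that is at the lowest value in all of its libraries, and the depth behind FPKM is unknown. In the bulk pair, 92.1% of 2697 low genes had a ratio of whole numbers within 0.02%, which gave the relative depth.

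The 77 genes and all lists were chosen with earlier results of these data known. Values were analysed as log2(value + 1). For the sorted libraries, limma 3.58.1 (R 4.3.3) was fitted to genes listed in every file of a fit with a mean of at least 1, with Benjamini-Hochberg adjustment over all genes and a threshold of 0.05. Population comparisons used 9 libraries with the set as a term (4 residual degrees of freedom), the genotype comparison 6 with the population as a term (2). The fits were tested on simulated data in which the spread of each gene was capped. That does not show how often a difference would be called at the full spread. Pairing was checked on wild-type libraries: across 10411 genes, the change from number 1 to number 2 in a population had correlations of 0.193, 0.269 and 0.401 with that in another. Each exceeded 0.1, and the numbers were taken to pair the libraries. The check cannot show pairing, since all libraries numbered 1 were made as a separate table. A difference between tables would raise these correlations in every population. Measured instead as deviations from population means over all 9 libraries, the correlations among number 1 were 0.327 to 0.508, but among number 2 they were 0.019, 0.097 and 0.28, so the pairing is weak for number 2. Unreplicated pairs have no test; a gene counted as past the fold at 2-fold or more on value + 1 with at least 5 in the higher library.

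Named genes follow a rule: the 3 largest fitted differences each way among genes with the same sign in every pair, the 3 largest differences each way in unreplicated pairs, a panel by role, and the highest and lowest levels; others are said to be named after their values were seen. Marker lists covered CD8 T, myeloid, B, erythroid, stromal, CD4 and regulatory T, and NK cells and proliferation. B cell markers summed to at most 32.8 FPKM, stromal ones to 21.9, CD4 and regulatory T ones to 24.8 and the NK marker to 3.47 in the sorted libraries.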

Additional observations from a re-analysis of the deposited data

How the results depend on the processing

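Under 19 alternatives for each population comparison and 14 for the genotype comparison, 0 of the 77 genes were called in any, and their smallest adjusted p by limma ranged from 0.136 to 1. With the replicate block on the 6 wild-type libraries the median differences were -0.18 (TIM-3_SP minus DN), 0.14 (B7S1R_SP minus DN) and 0.39 (B7S1R_SP minus TIM-3_SP). They were the same with no replicate block, since in this balanced layout the block cannot change a fitted difference. With the replicate block on the 6 libraries of 1 gene list, added after seeing the data, the medians were -0.08, 0.30 and 0.51. The block changed no call among the 77 genes. Over all genes, calls numbered 6, 0 and 42 as reported, 2, 0 and 7 with the wild-type block and 0, 0 and 0 with no block. A variance trend gave 24, 1 and 165, equal medians 8, 0 and 105, a pseudocount of 0.1 gave 1, 1 and 2, and no filter 0, 0 and 7. Between genotypes, 4 were called as reported, 10 with a variance trend, 7 with equal medians and 0 to 18 with 1 library left out.

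Leaving out 1 library at a time gave medians from -0.39 to -0.09, from -0.06 to 0.25 and from 0.21 to 0.54 in that order, and from 0.06 to 0.41 for the libraries labelled KO minus wild type. The lowest values came without DN_WT replicate 2, except for B7S1R_SP minus TIM-3_SP, where 0.21 came without B7S1R_SP_WT replicate 2. Setting libraries to equal medians shifted all genes by 0.19 (TIM-3_SP minus DN), -0.21 (B7S1R_SP minus TIM-3_SP) and 0.28 (genotype). Between TIM-3_SP and DN 35 of the 77 genes were then higher and 42 lower, where 52.5% of all genes were higher. The median of the 77 was -0.06 there, and it was 0.18 between B7S1R_SP and TIM-3_SP.

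In the unreplicated pairs, a fold of 1.5 gave 15 higher and 9 lower in bulk and 30 lower in anti_B7S1 against Control. Equal medians gave -0.23 for anti_B7S1, 0.10 with 25 genes past the fold lower for anti_PD1, and -0.28 for combo, each against Control. No share over all genes is given at these settings, so the counts cannot be set against a background. The cause was not tested in any of these pairs. Depth limits every value near 0 in the antibody libraries.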
